A study of Mus musculus with 4 samples.

Results

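Myocardin (Myocd), serum response factor (Srf), the myocardin-related factors Mrtfa and Mrtfb, and the Krüppel-like factors Klf4 and Klf5 were followed in smooth muscle cells and fibroblasts of the mouse ascending aorta. The 6 genes were chosen by name as core regulators of the smooth muscle phenotype, out of 18111 genes that the 3 count tables used here have in common. All 6 were listed in each table, Mrtfa and Mrtfb under their older names Mkl1 and Mkl2 in the baseline table. The cells came from male mice of the Mef2c-mTmG strain, in which a membrane-bound reporter separates cells with a history of Cre activity from those without. Living single cells of the digested ascending aorta were sorted by lineage and captured with the 10x Chromium 3' v3 chemistry. The groups were SHF baseline (second heart field lineage, no infusion), SHF AngII (the same lineage after 3 days of angiotensin II, a peptide hormone that raises blood pressure) and CNC AngII (the other sorted lineage, whose abbreviation the labels do not spell out, after the same infusion). The CNC baseline group was not analysed here. The age of the mice and the number of animals behind each library are not given in the sources used here, and each group was 1 library, which leaves every difference without a replicate check, and no p-value is given.

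Srf binds a short DNA element, the CArG box, and has little activity without a partner. Myocardin is a partner restricted to smooth and cardiac muscle that drives contractile genes, whereas Mrtfa and Mrtfb are more widespread partners, held in the cytoplasm by free actin monomers and released to the nucleus when actin polymerises. A second set of partners, the ternary complex factors, directs Srf to immediate early genes such as Fos and Egr1. Klf4 is known as a repressor of myocardin-dependent genes in smooth muscle cells that lose their contractile phenotype and is itself induced quickly by stress and by tissue dissociation, and Klf5 is linked to smooth muscle growth.

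Promoter windows show where the strict CArG box (CC, 6 bases of A or T, GG) stands in these genes. RefSeq windows of the GRCm38.p6 build, from 250 bases before a start to 50 after it, were found for 4 of the 6 regulators (Srf, Mrtfa, Mrtfb and Klf4). Of 32851 such windows of all genes, 1.63% held a strict CArG box on either strand. Counted by gene, as in the lists below, 1.81% of 27025 genes had a match in any of their windows. Srf was the 1 regulator with a match, and its window held 2, beginning 82 and 62 bases before the start. Among the gene lists used below, matches were found in 2 of 16 contractile genes with a window (Myl9 and Vcl). They were also found in 4 of 12 cytoskeletal genes (Actg1, Fhl1, Fhl2 and Filip1l) and 2 of 11 immediate early genes (Egr2 and Zfp36). The Srf partners and competitors (0 of 9), the KLF and SP family (0 of 11) and the modulation genes (0 of 3) had none. The 250 bases before the start are printed for Srf, for 1 to 2 genes of each list with a match, and for Klf4 as a regulator window without a match. Capitals mark the strict CArG boxes, and each sequence reads 5' to 3' on the strand of its gene. The windows are chr17:46556163-46556412 (Srf, minus strand), chr2:156775214-156775463 (Myl9, the regulatory light chain of myosin, plus strand), chr14:20929148-20929397 (Vcl, vinculin of cell adhesions, plus strand), chr11:120348496-120348745 (Actg1, gamma cytoplasmic actin, minus strand), chr7:28379229-28379478 (Zfp36, an immediate early gene that destabilises messenger RNAs, minus strand) and chr4:55532476-55532725 (Klf4, minus strand).
Srf: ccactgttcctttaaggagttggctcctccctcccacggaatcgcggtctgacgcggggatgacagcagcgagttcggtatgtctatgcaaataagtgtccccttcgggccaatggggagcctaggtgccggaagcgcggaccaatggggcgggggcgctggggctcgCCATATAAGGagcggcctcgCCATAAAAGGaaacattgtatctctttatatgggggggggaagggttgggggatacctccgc
Myl9: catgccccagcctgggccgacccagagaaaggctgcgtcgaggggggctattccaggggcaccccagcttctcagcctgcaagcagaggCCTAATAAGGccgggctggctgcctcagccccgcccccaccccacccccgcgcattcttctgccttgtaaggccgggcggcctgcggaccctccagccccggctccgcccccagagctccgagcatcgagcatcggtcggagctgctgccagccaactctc
Vcl: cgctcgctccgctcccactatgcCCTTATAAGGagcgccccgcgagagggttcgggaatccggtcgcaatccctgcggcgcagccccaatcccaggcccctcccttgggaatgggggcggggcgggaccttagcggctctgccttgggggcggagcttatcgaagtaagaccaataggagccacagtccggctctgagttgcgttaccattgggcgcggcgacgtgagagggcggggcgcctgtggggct
Actg1: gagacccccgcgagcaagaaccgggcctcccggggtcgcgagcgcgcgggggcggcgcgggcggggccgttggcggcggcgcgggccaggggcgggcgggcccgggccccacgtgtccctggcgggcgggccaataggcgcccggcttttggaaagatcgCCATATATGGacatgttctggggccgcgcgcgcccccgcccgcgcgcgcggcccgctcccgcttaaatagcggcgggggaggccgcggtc
Zfp36: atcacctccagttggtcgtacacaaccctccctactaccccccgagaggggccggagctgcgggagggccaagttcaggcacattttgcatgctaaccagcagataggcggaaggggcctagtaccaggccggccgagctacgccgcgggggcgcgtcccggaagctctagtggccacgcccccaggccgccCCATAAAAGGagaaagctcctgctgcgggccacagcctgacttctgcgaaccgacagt
Klf4: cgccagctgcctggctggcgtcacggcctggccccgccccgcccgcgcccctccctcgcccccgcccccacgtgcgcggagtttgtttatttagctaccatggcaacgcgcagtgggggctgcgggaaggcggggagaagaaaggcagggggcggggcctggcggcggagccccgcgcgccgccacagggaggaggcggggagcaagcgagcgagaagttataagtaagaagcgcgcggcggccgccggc
A strict match is a description of these letters and not a binding site, and windows without one may hold other forms of the element. The letters CACCC, bound by Krüppel-like factors and read on both strands, were in 57.5% of all windows and in 1 of 2 windows of Mrtfa, 3 of 3 of Mrtfb and 1 of 1 of Srf, but not in that of Klf4.

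In the GENCODE M21 annotation of the mouse genome the genes lie at chr11:65176561-65269989 (Myocd, minus strand), chr17:46548329-46556175 (Srf, minus), chr15:81012281-81190757 (Mrtfa, minus), chr16:13256481-13417529 (Mrtfb, plus), chr4:55527143-55532466 (Klf4, minus) and chr14:99298691-99315036 (Klf5, plus). No exon of theirs overlaps an exon of another gene on the same strand, and exons of Sgsm3 and Gm15738 overlap those of Mrtfa and Mrtfb on the opposite strand. The 2 AngII tables share 1 list of 32285 genes, whereas the baseline table lists 18760, so a difference between AngII and baseline cannot be told apart from a difference in gene annotation or library preparation. RefSeq extends the 3' end of Srf 1491 bases and that of Myocd 2953 bases beyond GENCODE M21, which matters for a 3' count if the tables used different gene models.

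After cells with fewer than 500 genes or more than 10% mitochondrial UMIs (unique molecular identifiers, each a captured transcript) and called doublets were left out, 8374, 9274 and 10230 cells remained in SHF baseline, SHF AngII and CNC AngII. Smooth muscle cells were taken as those with at least 5 UMIs of Myh11, the smooth muscle myosin heavy chain, and none of Pdgfra, a fibroblast receptor, and numbered 2259, 4639 and 6410. Fibroblasts had at least 1 UMI of Pdgfra and at most 2 of Myh11 and numbered 3939, 2638 and 845. Median depths were 12441, 13325 and 13469.5 UMIs per smooth muscle cell and 9534, 15485.5 and 12369 per fibroblast. All 6 smooth muscle markers were detected in the smooth muscle gate (summed level 56310 to 63663 CPM, that is counts per 1000000 UMIs of the class, against 1290 to 4048 CPM in fibroblasts), and all 6 fibroblast markers in the fibroblast gate (11842 to 32979 CPM against 1711 to 1870 CPM). The gates themselves fixed Myh11 and Pdgfra, which are among these markers. Macrophage markers summed to 2.61, 1.31 and 237 CPM in smooth muscle cells and to 7.70, 18.8 and 186 CPM in fibroblasts, so CNC AngII carried more of this RNA in both gates. Its part in the CNC AngII values below was not tested. Each pair of libraries shared 29 to 34 cell barcodes, of which 12 to 14 were gated cells.

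Myocd marked the smooth muscle gate in every library. Its level was 78.1 CPM in smooth muscle cells of SHF baseline (95% Poisson interval 74.9 to 81.3), 64.3 CPM (62.4 to 66.2) in those of SHF AngII and 68.0 CPM (66.4 to 69.7) in smooth muscle cells of CNC AngII. In fibroblasts it was 1.82, 0.713 and 1.39 CPM, from 69, 32 and 16 UMIs. The log2 ratios of smooth muscle over fibroblast, computed with a pseudocount of 1 CPM, were 4.81, 5.25 and 4.85. Intervals here and below cover counting error only. Between 56.1 and 58.7% of smooth muscle cells had a Myocd UMI in the 3 libraries, against 1.60, 1.18 and 1.66% of fibroblasts. Macrophages of CNC AngII, which should lack the gene, had one in 0.644% of 1398 cells (interval 0.295 to 1.22%) at a median depth of 11637 UMIs. After thinning every cell to 5000 UMIs the fibroblast shares were 0.807, 0.560 and 0.648% against 0.438% in those macrophages, with overlapping intervals. At full depth the SHF baseline fibroblasts (1.42 to 2.30 CPM, 1.23 to 2.04% of cells) lay above those macrophages (0.522 CPM, 0.239 to 0.991), whereas the intervals of the AngII fibroblasts overlapped theirs. The macrophages belong to 1 AngII library, so the free RNA of the baseline library was not measured by them. The 26 thinned SHF baseline fibroblasts with a Myocd UMI also held more contractile RNA than fibroblasts without one, with 17 of 17 contractile genes above 0 and a median ratio of 1.15 (log2), where 53.3% of all tested genes were above 0. This was not particular to baseline. In 14 such cells of SHF AngII 14 of 16 contractile genes were above 0 (median 0.78), beside 58.5% of all tested genes. In 5 of CNC AngII 10 of 13 were (median 0.27), beside 53.6%. The part of free RNA or of uncalled doublets in these values was not tested.

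Srf was detected in both classes, higher in smooth muscle cells. Smooth muscle cells of SHF baseline held it at 42.2 CPM (39.9 to 44.6), those of SHF AngII at 16.7 CPM (15.8 to 17.7) and those of CNC AngII at 16.3 CPM (15.5 to 17.2), and fibroblasts at 25.6, 8.71 and 8.19 CPM. Both AngII libraries were thus below the baseline library in both classes, and their Poisson intervals did not overlap that of baseline. The log2 ratios of smooth muscle over fibroblast were 0.70, 0.87 and 0.92. They fell below 1.5-fold with a pseudocount of 10 CPM (0.55, 0.51 and 0.53), and the baseline ratio did so with a stricter cell filter (0.55). Thinned to 5000 UMIs, 18.7, 8.34 and 7.73% of smooth muscle cells had an Srf UMI.

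The actin-regulated partners were not enriched in smooth muscle. Mrtfa stood at 5.99, 6.02 and 7.35 CPM in smooth muscle cells and at 10.2, 8.87 and 7.66 CPM in fibroblasts of SHF baseline, SHF AngII and CNC AngII. Mrtfb stood at 14.2, 6.53 and 6.70 CPM in smooth muscle cells and at 25.2, 8.94 and 7.84 CPM in fibroblasts. The fibroblast excess of both genes was largest in SHF baseline, with log2 ratios of smooth muscle over fibroblast of -0.68 for Mrtfa and -0.79 for Mrtfb, and smallest in CNC AngII, where the ratios of -0.05 and -0.20 had counting intervals that included 0. Both turned sign under TMM scaling, which centres most genes, to 0.17 for Mrtfa and 0.02 for Mrtfb, and Mrtfb also did so with stricter gates (0.06).

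Klf4 was higher in fibroblasts than in smooth muscle cells of the same library. It stood at 221, 144 and 152 CPM in smooth muscle cells of SHF baseline, SHF AngII and CNC AngII and at 695, 423 and 289 CPM in fibroblasts. The log2 ratios of smooth muscle over fibroblast were -1.65, -1.55 and -0.93. Fibroblasts thus differed more between the libraries than smooth muscle cells did, and their level in CNC AngII was the lowest of the 3. A Klf4 UMI was found in 58.8, 58.1 and 61.4% of smooth muscle cells and in 81.2, 78.5 and 68.5% of fibroblasts. Single smooth muscle cells held up to 47, 38 and 46 UMIs of Klf4, and 44.0, 38.9 and 40.4% of them held 2 or more.

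Klf5 was close to the limit of detection. It had 20, 65 and 95 UMIs in all smooth muscle cells of SHF baseline, SHF AngII and CNC AngII, which is 0.677, 0.939 and 0.984 CPM, and 28, 52 and 12 UMIs in fibroblasts (0.739, 1.16 and 1.04 CPM). A UMI was found in 0.841, 1.21 and 1.48% of smooth muscle cells, against 1 of 1398 macrophages of CNC AngII (0.0715%). The intervals of its levels overlapped between the 2 classes in every library, and no order of the libraries was readable.

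Between the classes, 4 of the 6 regulators of SHF baseline had a mean of at least 10 CPM, the minimum for a gene to be tested, and all 4 were past 1.5-fold, where 36.6% of all genes above that minimum were (12% higher and 24.6% lower in smooth muscle). Mrtfa, below the minimum, was past 1.5-fold as well, which makes 5 of 6. In SHF AngII and CNC AngII 3 regulators reached the minimum and were past 1.5-fold (Myocd, Srf and Klf4), beside 38% of all genes (15.3% higher, 22.7% lower) and 36.6% (14.8% higher, 21.8% lower). The 3 that passed in every library were Myocd and Srf, higher in smooth muscle, and Klf4, higher in fibroblasts. CPM from 3' UMIs are not scaled for length, so the levels of different genes were ordered only on that scale: Klf4 stood highest in smooth muscle cells of all 3 libraries, followed by Myocd and then Srf, with no overlap of their intervals, and Klf5 stood lowest. Mrtfa and Mrtfb of smooth muscle cells overlapped in both AngII libraries. In fibroblasts Klf4 stood first, and the intervals of Srf and Mrtfb overlapped in all 3 libraries.

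**Figure D1:**
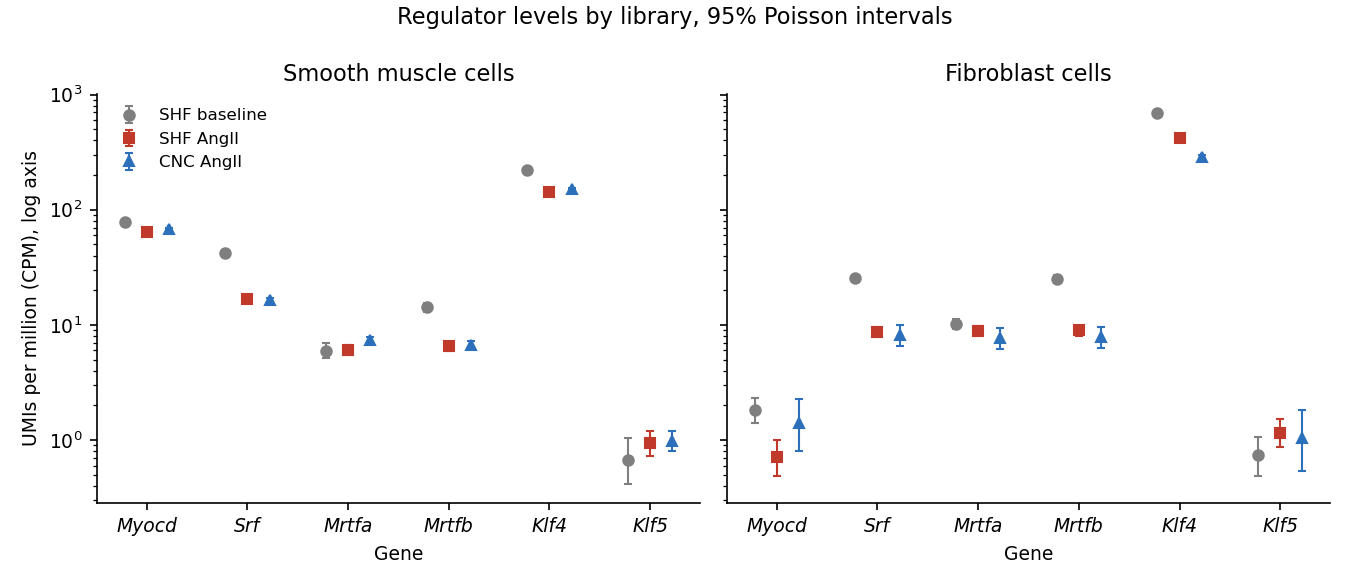
Level of each regulator in CPM (log axis) in smooth muscle cells (left) and fibroblasts (right) of SHF baseline (circles), SHF AngII (squares) and CNC AngII (triangles), with 95% Poisson intervals that cover counting error only. Myocd lies at 64.3 to 78.1 CPM in smooth muscle cells and at 0.713 to 1.82 CPM in fibroblasts, Klf4 is higher in fibroblasts, and Srf and Mrtfb of SHF baseline lie above both AngII libraries in each class.

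Within the SHF lineage, the AngII library was set against the baseline library. Srf of smooth muscle cells had a log2 ratio of -1.28 (counting interval -1.40 to -1.17), Mrtfb -1.01 (-1.19 to -0.84) and Klf4 -0.62 (-0.66 to -0.57). Myocd was lower by less, at -0.28 (-0.35 to -0.20), Mrtfa stood at 0.01 (-0.21 to 0.23) and Klf5 at 0.21 (-0.13 to 0.51). Srf, Mrtfb and Klf4 (3 of 6, and 3 of the 4 that reached 10 CPM) were past 1.5-fold lower, in a comparison in which 24.3% of 6999 genes were past 1.5-fold, 8.73% in the higher and 15.6% in the lower direction. The 1.5-fold line lay within the interval of Klf4.

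In fibroblasts the same regulators were lower. Srf had a log2 ratio of -1.45 (-1.61 to -1.29), Mrtfb -1.40 (-1.56 to -1.24) and Klf4 -0.72 (-0.74 to -0.69). Myocd stood at -0.72 on the few UMIs given above, Mrtfa at -0.19 and Klf5 at 0.31. The Myocd ratio was at -0.12 once free RNA was subtracted. Past 1.5-fold lower were 3 of the 3 that reached 10 CPM and also Myocd, below that minimum, where 38.2% of 7694 genes above the minimum were past it, 10.5% in the higher and 27.6% in the lower direction. Both comparisons share no cells but use the same 2 libraries and tables, so the smooth muscle and fibroblast ratios are not independent.

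All ratios between AngII and baseline depend on the scaling. The median log2 ratio of all tested genes was -0.10 in smooth muscle cells and -0.21 in fibroblasts, and TMM scaling moved ratios up by 0.18 and 0.28. The share of lower ones among all genes past 1.5-fold went with it from 64.1 to 38% in smooth muscle cells and from 72.4 to 42.8% in fibroblasts. Under it Klf4 stood at -0.44 in both classes, no longer past 1.5-fold, and Mrtfa of fibroblasts turned from -0.19 to 0.06. Srf stayed past 1.5-fold at -1.11 and -1.19. Without the cell filter Klf4 of smooth muscle cells was at -0.56, and with the stricter filter, which left 120 smooth muscle cells of SHF baseline, at -1.03.

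The lineages were compared in the 2 AngII tables, which share their gene list. In smooth muscle cells no regulator was past 1.5-fold between CNC AngII and SHF AngII (0 of 6, of which 3 reached 10 CPM, beside 1.93% of 6826 genes, 0.967% in each direction). The log2 ratios were 0.08 for Myocd (0.03 to 0.13), -0.03 for Srf (-0.14 to 0.07), 0.25 for Mrtfa (0.10 to 0.40), 0.03 for Mrtfb (-0.12 to 0.19), 0.08 for Klf4 (0.04 to 0.11) and 0.03 for Klf5 (-0.20 to 0.26). By counting error alone, the interval of each of these ratios excluded a 1.5-fold difference in either direction. With 1 library per lineage, the spread between mice is unknown.

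In fibroblasts 0 of 6, of which only Klf4 reached 10 CPM, were past 1.5-fold between the lineages either, beside 2.38% of 7280 genes (1.29% higher, 1.09% lower). Klf4 came nearest, with a log2 ratio of CNC AngII over SHF AngII of -0.55 (-0.60 to -0.49). Srf stood at -0.08 (-0.38 to 0.21), Mrtfa at -0.19 (-0.50 to 0.11), Mrtfb at -0.17 (-0.47 to 0.13), Myocd at 0.48 (0.00 to 0.96, 16 and 32 UMIs) and Klf5 at -0.08 (-0.55 to 0.44). The intervals of Myocd and Klf4 included the 1.5-fold line, whereas those of the other 4 did not.

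**Figure D2:**
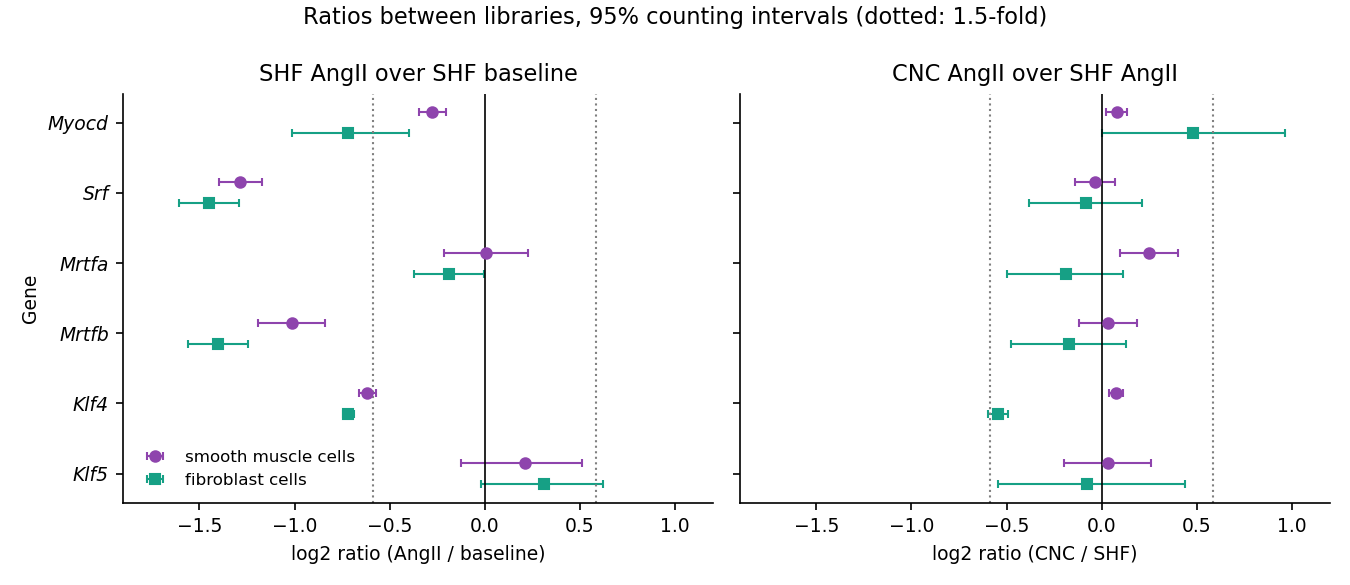
Log2 ratios of each regulator for SHF AngII over SHF baseline (left) and CNC AngII over SHF AngII (right) in smooth muscle cells (circles) and fibroblasts (squares), with 95% counting intervals; dotted lines mark 1.5-fold. Srf and Mrtfb lie at -1.01 to -1.45 on the left, and on the right all points lie within the dotted lines, with Klf4 of fibroblasts at -0.55.

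Klf4 of single cells followed the immediate early genes of the same cell. Gated cells were put into bins by the share of their UMIs in 14 immediate early genes (Klf4 not among them), with limits of 5456 and 10440.5 CPM, which split the pooled smooth muscle cells into equal parts. Smooth muscle cells of SHF baseline held Klf4 at 41.4, 111 and 308 CPM in the low, middle and high bin, those of SHF AngII at 53.1, 140 and 249 CPM and those of CNC AngII at 63.1, 163 and 274 CPM. The level was thus higher in each higher bin of every library, and 19.2% of the smooth muscle cells lay within 10% of a limit.

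The libraries differed in how their cells filled the bins. SHF baseline had 485, 400 and 1374 smooth muscle cells in the low, middle and high bin, SHF AngII 1549, 1656 and 1434, and CNC AngII 2402, 2380 and 1628. The median immediate early level was 13781 CPM in SHF baseline against 7694 and 6970 CPM in the AngII libraries. Within bins the log2 ratio of Klf4 for SHF AngII over SHF baseline was 0.35 (0.15 to 0.56) in the low bin, 0.32 (0.20 to 0.45) in the middle and -0.30 (-0.36 to -0.25) in the high bin, against -0.62 over all smooth muscle cells. Klf4 of SHF AngII smooth muscle cells was thus lower in the high bin and higher in the other two. The median immediate early levels of SHF AngII and SHF baseline were 2501 against 3049, 7844 against 7903 and 13695 against 18930 CPM from the low to the high bin, closest in the middle one. The part of the immediate early level in the lower Klf4 over all cells was not tested.

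Fibroblasts differed from this. Their Klf4 stood at 348, 529 and 823 CPM in the 3 bins of SHF baseline, at 150, 398 and 692 CPM in SHF AngII and at 132, 286 and 460 CPM in CNC AngII, in the same order of libraries in each bin. The log2 ratios of SHF AngII over SHF baseline were -1.21 (-1.30 to -1.12), -0.41 (-0.47 to -0.35) and -0.25 (-0.28 to -0.22) from low to high, and the median immediate early levels of the 2 libraries were 2090 against 2921, 8083 against 8031 and 14166 against 22342 CPM. The ratios of CNC AngII over SHF AngII were -0.18 (-0.32 to -0.04), -0.47 (-0.57 to -0.38) and -0.59 (-0.66 to -0.51).

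Srf of smooth muscle cells had overlapping intervals in the bins of each library. It stood at 42.1, 43.9 and 41.8 CPM in the low, middle and high bin of SHF baseline, at 16.3, 16.1 and 18.2 CPM in SHF AngII and at 16.1, 16.8 and 15.9 CPM in CNC AngII. The log2 ratio of SHF AngII over SHF baseline was -1.32, -1.40 and -1.16 in the 3 bins, close to that over all cells. Mrtfb stood at 14.1, 12.8 and 14.7 CPM from the low to the high bin of SHF baseline, at 5.68 (4.73 to 6.78), 6.06 (5.17 to 7.05) and 8.12 CPM (6.91 to 9.47) in SHF AngII and at 6.53, 6.28 and 7.74 CPM in CNC AngII. In SHF AngII it was thus higher in the high bin than in the low one, with no overlap of the intervals, whereas the intervals of the other libraries overlapped. In fibroblasts of SHF baseline Srf was higher in the high bin (29.1 CPM) than in the low one (16.6 CPM), whereas in those of SHF AngII it stood at 8.48 to 8.89 CPM in every bin. Myocd of smooth muscle cells was highest in the high bin of each library, at 89.6, 73.9 and 79.5 CPM.

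**Figure D3:**
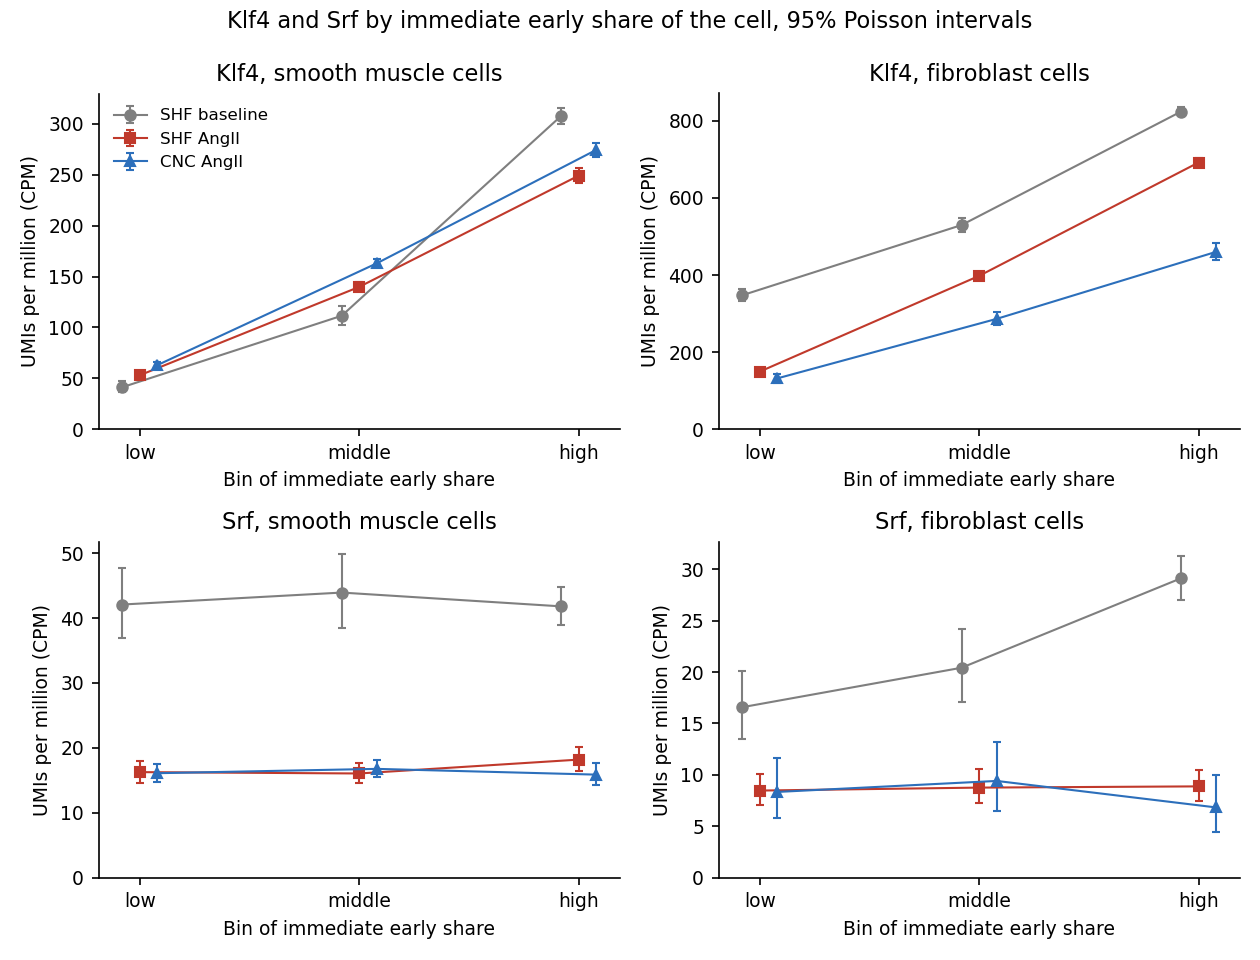
Klf4 (top) and Srf (bottom) in CPM in smooth muscle cells (left) and fibroblasts (right), by bin of the immediate early share of each cell, for SHF baseline (circles), SHF AngII (squares) and CNC AngII (triangles) with 95% Poisson intervals. In smooth muscle cells Klf4 goes from 41.4 to 63.1 CPM in the low bin to 249 to 308 CPM in the high bin, and Srf stays at 41.8 to 43.9 CPM in SHF baseline and 15.9 to 18.2 CPM in both AngII libraries.

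The immediate early list itself stood lower in SHF AngII than in SHF baseline. Among smooth muscle cells 10 of its 14 genes were past 1.5-fold lower and 1 higher, beside 15.6 and 8.73% of all tested genes, with a median log2 ratio of -0.81. The lowest were Btg2, an antiproliferative gene (-1.45), the zinc finger factor Egr1 (-1.28, from 1708 to 701 CPM) and Zfp36 (-1.24). The 1 higher gene was Egr3, which went from 0.102 CPM (3 UMIs) to 19.97 CPM (1382 UMIs) and also stood near 0 in fibroblasts of the baseline table (0.211 CPM). In fibroblasts 12 of 13 were past 1.5-fold lower, beside 27.6% of all tested genes, with a median of -0.99. Under TMM scaling the medians were -0.63 and -0.71, with 8 of 14 and 8 of 13 past 1.5-fold lower, where 8.69 and 15.4% of all tested genes then were. These 2 shares hold for the TMM counts of the other lists below. Between the lineages none was past 1.5-fold in either class, near the 1.93 and 2.38% of all tested genes, and the medians were -0.08 and -0.01. Median mitochondrial shares were 7.36% in SHF baseline and 5.44% in SHF AngII smooth muscle cells, and 4.09 and 2.82% in fibroblasts. The part of cell handling or quality in the lower immediate early levels was not tested.

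Contractile genes, which Srf and myocardin activate, did not stand lower as a group where Srf did. The 18 tested in smooth muscle cells had a median log2 ratio of -0.09 for SHF AngII over SHF baseline, where all tested genes had -0.10 (0.08 against 0.07 under TMM scaling), and 2 were past 1.5-fold lower, near the 15.6% of all tested genes, Synpo2 (-0.98) and Synm (-0.86), which encode actin-binding and intermediate filament proteins. The highest were Actg2, a smooth muscle actin (0.56), Myl9 (0.44) and Des, desmin (0.35). Acta2, the main smooth muscle actin, went from 29567 to 35668 CPM. In fibroblasts 8 of 15 contractile genes were past 1.5-fold higher, beside 10.5% of all genes, with a median of 0.60, led by Acta2 (1.76), Tagln (1.69) and Tpm2 (1.55), and 1 was lower, Itga8 (-0.62), beside 27.6%.

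Between the lineages the contractile list was slightly lower in smooth muscle cells of CNC AngII, with a median of -0.13 against 0.01 for all genes and 4 of 18 above 0 against 51.7% of all genes. Des was the 1 gene past 1.5-fold (-2.88, from 662 to 88.7 CPM), beside 0.967% of all tested genes in the lower direction. The regulators of these genes, at ratios of -0.03 for Srf and 0.08 for Myocd, stood within 0.1 of 0. Against fibroblasts of their own library, 18 of 18 contractile genes were past 1.5-fold higher in smooth muscle cells of SHF baseline and SHF AngII. In CNC AngII 17 of 18 were (Synm at 0.09). Of all tested genes 12, 15.3 and 14.8% were past 1.5-fold higher in the 3 libraries. The classes were gated on Myh11, itself a smooth muscle marker, so this contrast is not independent of the gates.

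The cytoskeletal and matricellular genes that Mrtf proteins activate had medians of 0.11 in smooth muscle cells and 0.37 in fibroblasts for SHF AngII over SHF baseline. For smooth muscle cells 3 of 15 were past 1.5-fold higher, the integrin Itga5 (1.22), the tropomyosin Tpm4 (1.15) and Ankrd1, a stretch-responsive gene (1.14), and none lower, beside 8.73% higher and 15.6% lower among all tested genes. In fibroblasts 5 of 14 were past 1.5-fold higher, among them Itga5 (1.26) and Fhl2 (1.25), and 2 lower, the matricellular gene Ccn1 (-1.15) and Filip1l (-0.89), beside 10.5 and 27.6%. Between the lineages 0 of 15 in smooth muscle cells and 1 of 15 in fibroblasts (Ankrd1, 0.66) were past 1.5-fold, beside 1.93 and 2.38% of all tested genes.

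Among other partners and competitors of Srf, few genes were past 1.5-fold in smooth muscle cells, at shares near those of all tested genes in the higher direction and somewhat above them in the lower one. Of 12 tested in smooth muscle cells 3 were past 1.5-fold lower, the Notch targets Heyl (-1.56) and Hey2 (-0.99) and Gata6 (-0.70), and 1 higher, Csrp2, a cofactor of Srf (0.77), beside 15.6 and 8.73% of all tested genes. Of 11 in fibroblasts 6 were lower, led by Heyl (-1.47) and Smad3 (-1.14), and 1 higher, Csrp2 (0.75), beside 27.6 and 10.5%. Under TMM scaling 2 and 3 were lower. The ternary complex factor Elk3 stood at 0.15 and 0.05 and Elk4 at -0.27 and -0.72 in smooth muscle cells and fibroblasts.

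Relatives of Klf4 in the KLF and SP family were lower in part. For SHF AngII over SHF baseline 5 of 10 were past 1.5-fold lower in smooth muscle cells and 6 of 9 in fibroblasts, none higher, beside 15.6 and 27.6% lower among all tested genes, with medians of -0.55 and -0.97. Under TMM scaling 4 of 10 and 5 of 9 were lower, with medians of -0.37 and -0.70. Of the 9 in fibroblasts 1 was then higher, beside 20.5% of all tested genes. The broad activators Sp1 and Sp3 stood at -1.09 and -0.93 in smooth muscle cells and at -1.39 and -1.19 in fibroblasts. Klf6, another fast-responding family member, was at -0.87 in smooth muscle cells, and Klf10, a TGF-beta-inducible factor, at 0.32. Between the lineages 0 of 10 and 0 of 9 were past 1.5-fold, near the 1.93 and 2.38% of all tested genes.

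Of 9 modulation genes linked to Klf4, used as markers of smooth muscle cells that leave the contractile state, 8 were tested in smooth muscle cells. In SHF AngII 3 of them were past 1.5-fold higher than in SHF baseline, beside 8.73% of all tested genes. They were Spp1 (osteopontin, from 0.541 to 143.5 CPM), the matrix protease Mmp3 (1.78) and Lgals3, galectin-3 (1.64). Past it in the lower direction was 1, Dcn, decorin (-0.88), beside 15.6%, and the median was 0.34. Fibroblasts had 6 of 9 higher and 2 lower, beside 10.5 and 27.6%, with a median of 0.87. The summed level of the list in fibroblasts nevertheless went down, from 19043 to 10022 CPM. Dcn, its most abundant gene there, went from 15528 to 5758 CPM. Between the lineages Spp1 was higher in smooth muscle cells of CNC AngII (0.92), while Dcn (-2.89), Lum (-2.88) and Mmp3 (-0.97) were lower, where 0.967% of all genes were past 1.5-fold in each direction. Dcn and Lum are also fibroblast markers, and fibroblasts made up 8.26% of kept cells in CNC AngII against 28.4% in SHF AngII. The part of that difference in these values was not tested. Macrophages made up 13.7% of kept cells in CNC AngII against 0.108% in SHF AngII. Their markers summed to 237 against 1.31 CPM in smooth muscle cells, and their part in the Spp1 value was not tested.

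Cells with and without a Klf4 UMI were compared after thinning to 5000 UMIs. Among smooth muscle cells 13 of 13 tested immediate early genes were higher in cells with Klf4 in each library, with median log2 ratios of 0.81 (SHF baseline), 0.54 (SHF AngII) and 0.58 (CNC AngII), where all tested genes had medians within 0.02 of 0. Past 1.5-fold were 10, 4 and 6 of them, beside 1.68, 0.519 and 0.533% of all tested genes. Fosb, Junb and Atf3, members of the AP-1 and ATF families, stood at 0.82, 0.99 and 0.92 in the baseline library, at 0.83, 0.64 and 0.72 in SHF AngII and at 0.81, 0.79 and 0.76 in CNC AngII.

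The contractile genes of the same smooth muscle cells differed little. They had medians of -0.05, -0.05 and -0.03 in cells with over cells without Klf4, and 2, 3 and 7 of 18 were above 0, against 47.4, 49.96 and 49.6% of all tested genes. None was past 1.5-fold in either direction (0.448, 0.0445 and 0.0296% of all tested genes were so in the lower one), and Acta2 stood at -0.07, -0.04 and -0.05. Contractile medians of fibroblasts were -0.33, -0.15 and -0.30, with 0, 2 and 4 of 15 above 0 against 44.4, 47.4 and 48.6% of all tested genes, and 3, 0 and 0 past 1.5-fold lower beside 1.6, 1.21 and 3.85% of all tested genes. Their immediate early genes were all higher in cells with Klf4 (13 of 13, 14 of 14 and 14 of 14), with 9, 12 and 10 past 1.5-fold beside 2.66, 2.11 and 4.44% of all tested genes. Myh11 and Pdgfra set the gates, so contractile levels were already limited in both classes.

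Myocd went with small differences in both lists. In smooth muscle cells with over cells without a Myocd UMI the contractile medians were 0.03, 0.09 and 0.08 in SHF baseline, SHF AngII and CNC AngII, with 11, 15 and 17 of 18 above 0 and none past 1.5-fold. The immediate early medians were 0.20, 0.03 and 0.07, with 12, 9 and 10 of 13 above 0 and none past 1.5-fold either. Of all tested genes 51.3, 48.7 and 53.8% were above 0. Few of them were past 1.5-fold: 17, 0 and 3 higher and 30, 23 and 8 lower, out of 7149, 6735 and 6762. Thinned cells with and without Klf4 held Myocd about equally often in the AngII libraries. A Myocd UMI was found in 26.5% of SHF AngII smooth muscle cells with Klf4 and 26.9% without, and in 29.1 and 28.8% in CNC AngII. In SHF baseline the shares were 33.2% (30.2 to 36.3) and 28.0% (25.5 to 30.5).

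**Figure D4:**
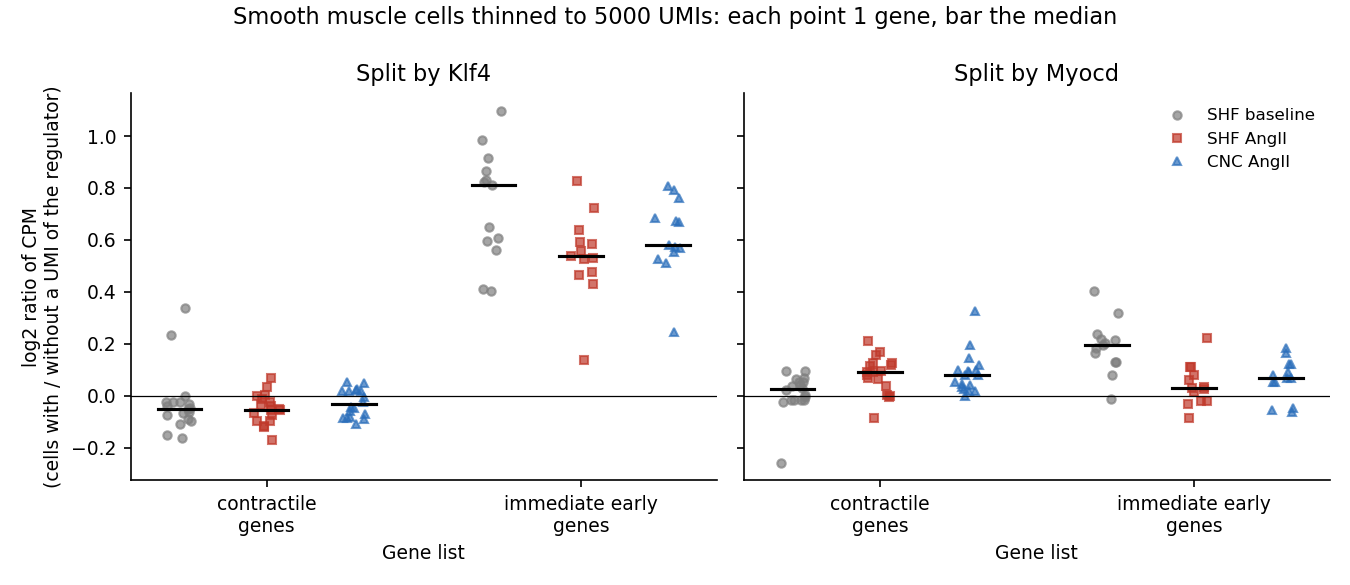
Log2 ratios of single contractile and immediate early genes in smooth muscle cells with over cells without a UMI of Klf4 (left) or Myocd (right), after thinning to 5000 UMIs, for SHF baseline (circles), SHF AngII (squares) and CNC AngII (triangles); black bars are medians. With Klf4 the immediate early medians are 0.54 to 0.81 and the contractile medians -0.05 to -0.03, and with Myocd the contractile medians are 0.03 to 0.09 and the immediate early medians 0.03 to 0.20.

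Smooth muscle cells that held Spp1 were split from those without it. In SHF AngII Klf4 stood at 186 CPM in 156 cells with at least 5 Spp1 UMIs and at 138 CPM in 4184 cells with none, a log2 ratio of 0.43 (0.32 to 0.54), and in CNC AngII at 188 CPM in 542 cells and 143 CPM in 5040 cells, a ratio of 0.39 (0.33 to 0.46). Myocd was lower in the Spp1 cells, at 53.7 against 65.6 CPM in SHF AngII and 57.8 against 71.1 CPM in CNC AngII. The Klf4 and Myocd differences were below 1.5-fold but pointed the same way in both lineages. Srf was lower in the Spp1 cells of SHF AngII (-0.41, -0.82 to -0.02), whereas in CNC AngII it stood at -0.03 (-0.24 to 0.18). Klf5 stood at 0.25 (-0.47 to 1.08) in SHF AngII and 0.50 (0.06 to 0.95) in CNC AngII, on 5 and 20 UMIs in the Spp1 cells. Ratios of Mrtfa and Mrtfb lay between -0.05 and 0.18. In CNC AngII the smooth muscle gate also held 237 CPM of macrophage markers, against 1.31 CPM in SHF AngII. Macrophages of CNC AngII held Klf4 at 187 CPM and Myocd at 0.522 CPM. The part of macrophage RNA or of depth in the Klf4 and Myocd differences was not tested. The Spp1 cells were deeper, with medians of 23126 and 21285.5 UMIs against 12687.5 and 12503.5, and their median immediate early levels were close to those of the rest (7271 against 7715 CPM, and 6864 against 6936 CPM). SHF baseline had 1 such cell. Splits by Igfbp2 or Tnnt2 gave log2 ratios of Klf4 between -0.16 and 0.06.

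The genes whose levels over the 6 profiles (smooth muscle cells and fibroblasts of 3 libraries) were most like each regulator were found by the root mean square difference of centred log2 levels. For Myocd they were Sorbs2, an adaptor of the cytoskeleton (0.12), Thsd4 of microfibrils (0.13) and Ppp1r14a, an inhibitor of myosin phosphatase (0.15). For Srf they were Gid4 (0.10), Sema5a (0.13) and Eif4a2 (0.13), for Mrtfb Kdm7a (0.07), Isca1 (0.09) and Prkd3 (0.10), and for Klf4 Mpzl1 (0.05), Kcnq1ot1 (0.13) and Kirrel (0.13). Mrtfa and Klf5 were below the minimum of 10 CPM and varied too little for such a search. With 6 points that share 3 libraries, likeness is a description.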

How the data were processed

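The authors deposited raw UMI counts per gene and cell barcode, not normalised, for each library used. Per the submitters' processing notes the tools were fastp, STAR 2.5 and HTSeq 0.6.1 with the mm10 build. Their roles and the annotation are not given in the sources used here. Totals were 92474476, 147854476 and 150954701 UMIs over 9412, 11166 and 11098 barcodes in SHF baseline, SHF AngII and CNC AngII. Baseline gene names were matched to the AngII tables directly or, for 517 genes, through RefSeq synonyms, and 13 repeated names were left out. Doublets were called per library with Scrublet in scanpy 1.11.5 (207, 218 and 243 cells) and left out, as were cells outside the gates: 25.3, 21.1 and 15.1% of kept cells met no gate. For each library and class, the UMIs of a gene were summed over cells and expressed per 1000000 of the UMIs of that class (CPM). Ratios are log2((CPM + 1)/(CPM + 1)), and called means past 1.5-fold. Intervals are exact Poisson for levels, Clopper-Pearson for shares and conditional binomial for ratios, at 95%. Thinning drew 5000 UMIs per cell without replacement and left out shallower cells. The ratio, interval and call were tested on simulated data. TMM factors came from edgeR 4.0.16, and TMM scaling of the gene lists was added after their values were seen.

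The 6 regulators and the 7 gene lists were chosen with earlier results of these data known. The results of 1 of these lists are not reported here. From each list at most the 3 highest and 3 lowest ratios per comparison are named, among genes with a mean of at least 10 CPM; genes named outside this rule (Acta2 in smooth muscle cells, Elk3 in fibroblasts, Elk4, and Fosb, Junb and Atf3 in the split by Klf4) were picked after their values were seen.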

Additional observations from a re-analysis of the deposited data

Results flagged for a closer look

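Klf4 differed in direction between the classes when the lineages were compared. The log2 ratio of CNC AngII over SHF AngII was 0.0765 in smooth muscle cells and -0.55 in fibroblasts. With 1 library per lineage the difference was not tested.

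Klf4 was also found in cells outside both gates. In 10 cells of SHF AngII that met the macrophage gate it stood at 335 CPM, against 62.5 CPM in 5 such cells of SHF baseline. Both sets were mixed: the former held 7903 CPM of smooth muscle and 5604 CPM of fibroblast markers beside 7117 CPM of macrophage markers, and the latter 10278 CPM of fibroblast beside 14052 CPM of macrophage markers. The values rest on 29 and 3 UMIs, and 1 SHF AngII cell held 21 of the 29.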

How the results depend on the processing

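11 other settings were tried for the 42 log2 ratios of single regulators: no cell filter (called doublets still left out), a stricter cell filter, doublets kept, stricter gates, totals without mitochondrial and ribosomal protein genes, totals over common genes, the mean of per-cell shares, thinned cells, free RNA subtracted, TMM scaling and a pseudocount of 10 CPM. Of the 462 resulting values, 395 stayed within the counting interval of the reported ratio and 67 did not; 26 changed sign, all of ratios under 1.5-fold. Under TMM scaling 2 regulators (Srf and Mrtfb) instead of 4 were past 1.5-fold in fibroblasts of SHF AngII over SHF baseline, and 3 (Myocd, Srf and Klf4) instead of 5 in smooth muscle over fibroblast of SHF baseline, since the scaling shifts all ratios alike. Under the pseudocount of 10 CPM that last count was 2 (Myocd and Klf4), since a larger pseudocount shrinks the ratios of low genes. The other counts of regulators stayed within 1.5 times of those reported under every setting. No paired analysis was possible because each group was 1 library, and for the same reason no replicate could be left out. At these depths Klf5 and fibroblast Myocd rest on few UMIs.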

Other observations

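The few endothelial cells (49, 30 and 33 in SHF baseline, SHF AngII and CNC AngII, gated on Pecam1 and Cdh5) held more Mrtfb than either main class. Its level there was 129 CPM (55 UMIs), 67.7 CPM (22 UMIs) and 55.3 CPM (12 UMIs), where smooth muscle cells and fibroblasts stood at 6.53 to 25.2 CPM. Endothelial Klf4, which in that cell type is known to respond to flow, stood at 342, 157 and 239 CPM.

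The 1398 macrophages of CNC AngII held Klf4 at 187 CPM, Mrtfa at 13.7 CPM (12.0 to 15.6), Mrtfb at 8.58 CPM and Srf at 6.15 CPM. Their Mrtfa lay above that of both main classes of the same library (7.35 and 7.66 CPM), and their Srf lay below that of its smooth muscle cells (16.3 CPM).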
